A study of Mus musculus with 45 samples.

Results

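The 10 genes described here encode integrin chains: the β chains Itgb1, Itgb2 and Itgb3 and the α chains Itgav, Itga4, Itga5, Itga6, Itgam, Itgal and Itgax. They were taken by name from a table of 24421 genes. The cells were macrophages grown from the bone marrow of C57BL/6 mice in a medium with L929-conditioned supernatant, which supplies the growth factor M-CSF, and used on day 7 of differentiation. Poly(A) RNA was sequenced from 21 libraries in 7 groups of 3. The groups were untreated cells, cells given IL4 (interleukin-4) at 10 ng/ml for 2 h or 4 h, cells given IFNg (interferon gamma) at 100 ng/ml for 2 h or 4 h, and cells given both cytokines at these doses for 2 h or 4 h, called the combination below. No genetic change is named for any of these groups, and the untreated cells served as the control for both time points. No untreated culture kept for 2 h or 4 h is listed. Treatment and time in culture thus cannot be told apart in changes against untreated cells or between the times. Whether replicates came from separate mice or cultures is not given in the sources used here, so p-values measure the spread between these libraries, which may be technical. A further 24 samples of the series, from cells with short hairpin RNAs, were not analysed here.

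Integrins are receptors for extracellular matrix and for proteins on other cells, and each is a pair of 1 α and 1 β chain. The β1 chain pairs with α4, which binds Vcam1 and fibronectin, with α5, the classical fibronectin receptor, with α6, which binds laminins, and with αv. The αv chain also pairs with β3 and β5 to bind vitronectin and other matrix proteins with an RGD motif. The β2 chain is found on leukocytes and pairs with αL, which binds Icam1, with αM, the complement receptor that marks myeloid cells as CD11b, and with αX, known as CD11c and widely used as a dendritic cell marker. Talin and kindlin bind the β chain's tail and switch the receptor on, and kinases of the Src and focal adhesion families carry its signals.

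Each library held 28920801 to 80028327 reads. Untreated replicates 2 and 3 stood apart, with 43.2% and 15.7% of their reads on the ribosomal RNA precursor Rn45s against 0.151% in untreated replicate 1 and at most 3.21% in a treated library. Because such reads lower the CPM (read counts scaled to a fixed library total) of all other genes, levels are given as rescaled CPM, the deposited CPM divided by a median-ratio factor of 0.577 to 1.21. A change is the difference of the group means of log2(rescaled CPM + 1) ± its standard error (SE), which understates the change of low genes. A gene is called at a Benjamini-Hochberg adjusted p under 0.05 in limma, fitted to the 11380 genes that reached 1 CPM in 3 or more libraries. As deposited, the median log2 change over all genes against untreated cells was 0.10 to 0.43, and it was between -0.01 and 0.01 after rescaling. Libraries that carry 1 replicate number were alike across the groups. A fit with the replicate number as a block, in which each treated library is compared with its own number, is given where it changes a call. The macrophage markers Csf1r and Adgre1 were abundant in all libraries, at 2273 to 5897 and 1207 to 2032 rescaled CPM. Of 10 macrophage markers Lyz2 was the highest, at 9911 to 27140 rescaled CPM, and so weighs most in their sum. The summed level of the 10 macrophage markers was 17276 to 21311 in the libraries numbered 2, below the 30616 to 37420 of those numbered 1 and the 27972 to 37799 of those numbered 3. Markers of other cell types were low beside these, though not absent. The 9 neutrophil markers summed to 66.5 to 378 rescaled CPM, with S100a9 at 27.5 to 149. By replicate number 1, 2 and 3 these sums were 182 to 378, 152 to 261 and 66.5 to 126. The 5 megakaryocyte and platelet markers summed to 33.8 to 95.6, mostly from Pf4 at 32.8 to 94.0, with 3 of them (Ppbp, Gp9 and Itga2b) under 1 CPM in all libraries. Their sums were highest in the libraries numbered 2, at 73.0 to 95.6, against 33.8 to 47.4 in those numbered 1 and 36.5 to 45.0 in those numbered 3. T and NK cell markers summed to 3.16 to 33.3 (5 of 8 under 1 CPM), B cell markers to 3.41 to 14.8 (4 of 5, the other being Cd79b), dendritic cell markers to 2.45 to 11.5 (2 of 7, Zbtb46 and Ccr7) and mast cell and basophil markers to 0.591 to 9.70 (4 of 6), and Pax5 of B cells and Mcpt4 of mast cells were listed at 0. Fibroblast markers summed to 6.89 to 18.6 (1 of 6), endothelial markers to 0.729 to 32.6 (4 of 5) and erythroid markers to 0.0270 to 0.676 (7 of 7). The part of other cells in the levels below was not tested. Values are mRNA levels of bulk cultures, in which fewer cells of a type and less RNA per cell cannot be told apart.

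The 250 bases before the transcription start are shown for Itgav, Itga4 and Itga5, which rose together with IFNg, and for Itgax, which was higher with IL4 than with IFNg at 4 h. They come from RefSeq promoters of build GRCm38.p6, in which 6 of the 10 genes were found (also Itgam and Itgb1, and not Itgb2, Itgb3, Itgal and Itga6). The windows are chr2:83724147-83724396, chr2:79255176-79255425 and chr7:128129300-128129549 on the plus strand and chr15:103366792-103367041 on the minus strand. Capitals mark matches, on either strand, to the letters of motifs bound by factors of cytokine and macrophage transcription; matches to the GC box, a common promoter element, are not in capitals.
Itgav: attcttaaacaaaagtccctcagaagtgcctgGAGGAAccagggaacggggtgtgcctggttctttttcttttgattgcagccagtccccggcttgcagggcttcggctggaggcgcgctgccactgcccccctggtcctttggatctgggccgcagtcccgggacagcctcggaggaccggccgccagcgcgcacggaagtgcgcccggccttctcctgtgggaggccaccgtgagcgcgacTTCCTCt
Itga4: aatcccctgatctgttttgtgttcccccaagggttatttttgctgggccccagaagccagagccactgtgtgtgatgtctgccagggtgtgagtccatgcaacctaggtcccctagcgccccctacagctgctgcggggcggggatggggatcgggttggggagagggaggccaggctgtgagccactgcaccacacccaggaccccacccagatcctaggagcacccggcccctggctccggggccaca
Itga5: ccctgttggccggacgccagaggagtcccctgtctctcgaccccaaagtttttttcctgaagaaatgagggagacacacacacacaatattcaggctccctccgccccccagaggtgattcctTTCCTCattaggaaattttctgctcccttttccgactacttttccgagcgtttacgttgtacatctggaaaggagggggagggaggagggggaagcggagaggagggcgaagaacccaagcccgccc
Itgax: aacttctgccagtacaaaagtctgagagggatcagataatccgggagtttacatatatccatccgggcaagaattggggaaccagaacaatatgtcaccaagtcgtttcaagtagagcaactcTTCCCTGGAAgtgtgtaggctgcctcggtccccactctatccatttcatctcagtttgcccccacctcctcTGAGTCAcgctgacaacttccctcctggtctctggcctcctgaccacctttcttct
The motifs searched were TTCNNNGAA (GAS-like, the form STAT proteins bind after IFNg), TTC and GAA set 4 bases apart (STAT6-like), GAAA repeated after a gap of 2 bases (IRF-like), TGANTCA (AP-1), GAGGAA (PU.1-like) and GGGCGG (GC box), with no overlap between matches in these windows. Of the 6 promoters, Itgax was the one with a STAT6-like match, TTCCCTGGAA from base -127, and it also held an AP-1 match, TGAGTCA from base -56. PU.1-like letters lay in Itgav from bases -218 and -7 and in Itga5 from base -127, and also in Itgam from bases -84 and -15 and in Itgb1 from base -9. The GC box lay in Itga4 from base -114, the 1 match in that window, in Itga5 from bases -149 and -6, in Itgam from base -47 and in Itgb1 from base -151. Among 32851 RefSeq promoter windows of the same length, 7.02% held the GAS-like, 5.85% the STAT6-like, 2.98% the IRF-like, 6.75% the AP-1, 23.3% the PU.1-like and 32.7% the GC box letters. A match is a run of letters and not a bound site.

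Levels of different chains can be compared per length of exon, in rescaled CPM per kb of the gene's joined exons in GENCODE vM21. On this scale Itgb1 was the most abundant chain, with a median of 266 over the 21 libraries, followed by Itgam (171) and Itgb2 (161). Itgav (77.0), Itga6 (71.4), Itga5 (47.8) and Itga4 (34.7) formed a middle range, and Itgal (5.74), Itgb3 (3.09) and Itgax (0.720) were low. Itga4 had the widest span of the 7 α chains, from 9.35 to 174 per kb, and at its highest it matched the level of Itgam. Itgam itself stayed between 144 and 204 per kb. Of the 16 other integrin chains in the table, 5 passed the filter on low values. Itgb5, a partner of αv, had a median of 83.3 per kb, close to that of Itgav, but their order differed by group. The mean per kb of Itgb5 was 106 against 23.9 for Itgav in untreated cells and 65.4 against 29.9 with IL4 at 4 h. It was 70.3 against 89.5 with IFNg at 4 h and 59.8 against 96.4 with the combination at 4 h. The remaining 4 of the 5 chains were Itgb7 (8.92), Itga9 (1.01), Itga8 (0.531) and Itga1 (0.196). Itgb8, another partner of αv, reached at most 0.292 rescaled CPM, and Itgad, the remaining α partner of β2, at most 0.180 rescaled CPM.

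**Figure D1:**
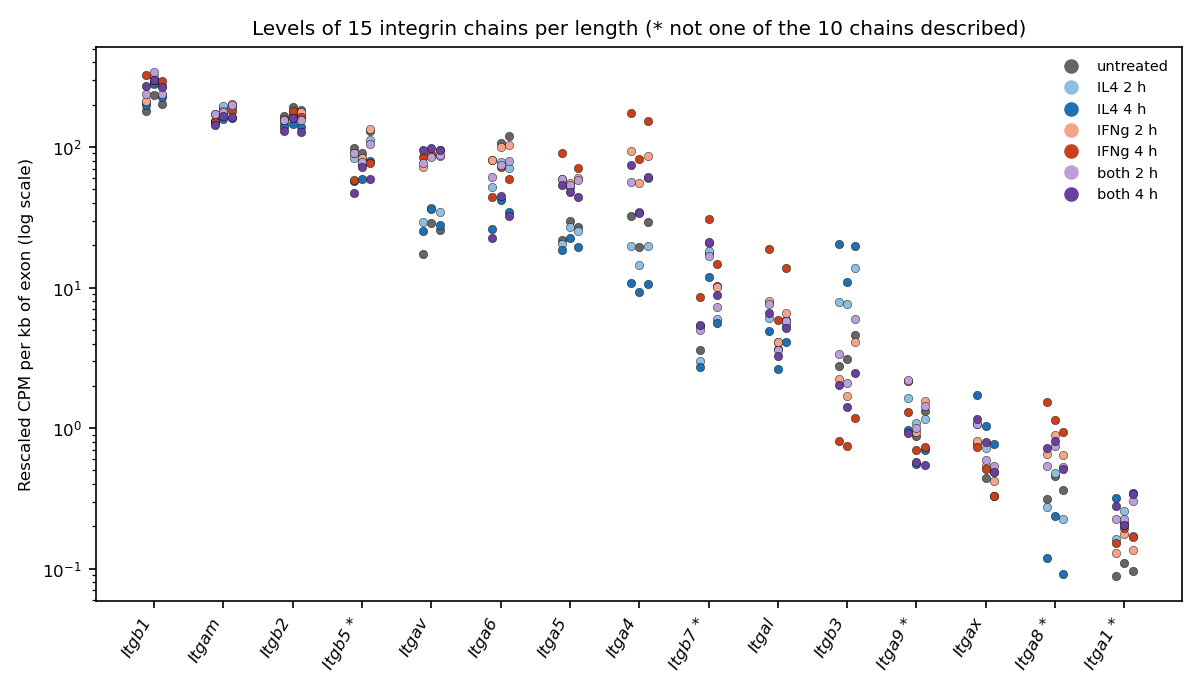
Level of 15 integrin chains per length in rescaled CPM per kb of exon on a log axis, each point 1 library, coloured by group and ordered by the median. Itgb1, Itgam and Itgb2 lie highest and within narrow bands, and Itga4 spans 9.35 to 174 with its IFNg 4 h libraries on top and its IL4 4 h libraries at the bottom.

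All 10 genes passed the filter. Against untreated cells 1 of the 10 was called with IL4 at 2 h, where 8.62% of all genes tested were called, and 4 with IL4 at 4 h, where 22.1% were. With IFNg 3 were called at 2 h against 17.9% of all genes, and 6 at 4 h against 39.2%. The combination gave 2 calls at 2 h against 22.2%, and 5 at 4 h against 42.6%, so that IL4 at 2 h and the combination at both times gave shares near the background. The median change of the 10 genes was -0.28 with IL4, 0.30 with IFNg and 0.13 with the combination at 4 h, where the median over all genes was -0.01, 0.00 and 0.00. With IL4 at 4 h 1 rose and 3 fell, where 12.0% of all genes rose and 10.1% fell. With IFNg at 4 h 4 rose and 2 fell, against 21.3% and 17.8%, and with the combination at 4 h 3 rose and 2 fell, against 22.8% and 19.8%. With CPM as deposited the split was 4 up and 1 down with IL4, where 34.1% of all genes rose and 2.55% fell, 5 and 1 with IFNg (17.7% and 7.64% of all genes), and 4 and 1 with the combination (23.7% and 8.46%), so that the balance of directions with IL4 depended on the scaling. All 6 comparisons share the untreated libraries. In the fit with the replicate block more genes were called throughout: 5 and 8 of the 10 with IL4 at 2 h and 4 h, where 25.5% and 47.5% of all genes were, 4 and 7 with IFNg, where 38.1% and 63.3% were, and 7 and 9 with the combination, where 43.4% and 66.7% were.

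**Figure D2:**
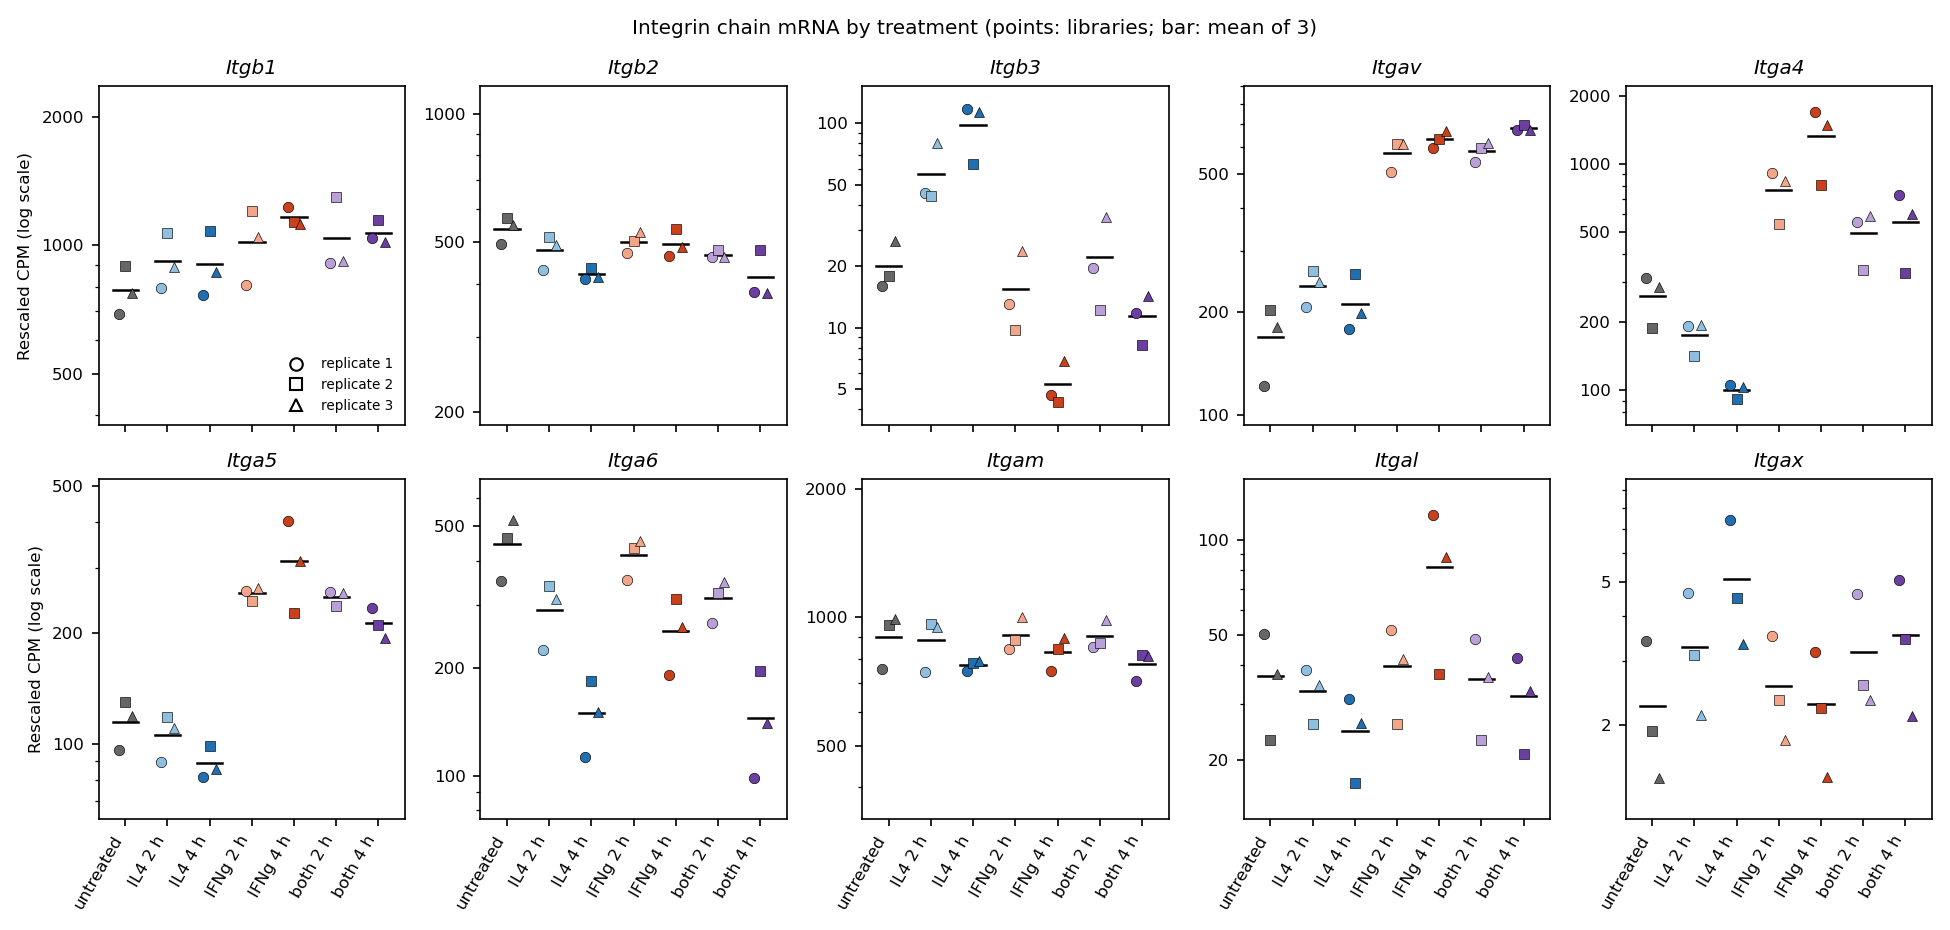
Rescaled CPM of the 10 integrin chains on log axes, 1 panel per gene; points are libraries, shaped by replicate number, and bars are means of 3. Itgav, Itga4 and Itga5 are high where IFNg was given, Itgb3 is high with IL4 alone, Itga6 is low in all 4 h groups, and Itgam is level; replicate 2 is the lowest point of all 7 groups for Itga4 and Itgal.

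The order of the 7 group means was read against the spread of the libraries. For Itgav it ran from the combination at 4 h over IFNg at 4 h, the combination at 2 h and IFNg at 2 h to IL4 at 2 h, IL4 at 4 h and untreated cells, and neighbours did not overlap between the combination and IFNg at 4 h and between IFNg and IL4 at 2 h. For Itga4 the order was IFNg 4 h, IFNg 2 h, combination 4 h, combination 2 h, untreated, IL4 2 h and IL4 4 h, and neighbours did not overlap between the combination at 2 h and untreated cells and between IL4 at 2 h and at 4 h. For Itga5 it was IFNg 4 h, IFNg 2 h, combination 2 h, combination 4 h, untreated, IL4 2 h and IL4 4 h, and the combination at 4 h was separate from both neighbours. Itga6 ran from untreated and IFNg 2 h over the combination 2 h, IL4 2 h and IFNg 4 h to IL4 4 h and the combination 4 h, with gaps below IFNg 2 h and below IFNg 4 h. Itgb3 ran from IL4 4 h and IL4 2 h over the combination 2 h, untreated, IFNg 2 h and the combination 4 h to IFNg 4 h, with gaps below IL4 2 h and above IFNg 4 h. In Itgb2 the gap lay between the combination 2 h and IL4 4 h, and in Itgb1, Itgam, Itgal and Itgax all neighbours overlapped.

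Itgav (chr2:83724397-83806916, GRCm38), the αv chain of the vitronectin receptors, was high wherever IFNg was given. In untreated replicates 1, 2 and 3 its level was 122, 203 and 181 rescaled CPM. With IFNg the libraries held 506, 612 and 612 at 2 h and 595, 631 and 668 at 4 h, and with the combination 543, 596 and 617 and 673, 694 and 674. The lowest library with IFNg, alone or combined, lay above the highest without it, which held 262. The log2 change with IFNg was 1.80 ± 0.16, adjusted p = 5.7e-07, at 2 h and 1.93 ± 0.16, adjusted p = 9.9e-08, at 4 h (limma), the latter a 3.81-fold rise. With the combination it was 1.82 ± 0.16 and 2.04 ± 0.16. The level at 4 h was close to that at 2 h, with a difference of 0.14 ± 0.16 (95% interval -0.22 to 0.49) for IFNg, and none of these calls was lost in any alternative run. IL4 alone gave 206, 262 and 244 at 2 h and 178, 257 and 198 at 4 h, higher than untreated in 3 of 3 replicate pairs at both times. These changes of 0.52 ± 0.16, adjusted p = 0.063, and 0.34 ± 0.16, adjusted p = 0.16, were not called, but were with CPM as deposited (0.0031 and 0.0044) and with the block (0.0015 and 0.016). The 2 h change was also called without untreated replicate 2 (0.024) or untreated replicates 2 and 3 together (0.0082), and the 4 h change without untreated replicates 2 and 3 together (0.014). The non-coding gene Gm13684 and the pseudogene Dnmt3l-ps1 overlap Itgav on the other strand, and the strand setting of the counting is not given in the sources used here.

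Itga4 (chr2:79255426-79333123), the α4 chain that binds Vcam1 and fibronectin, moved in opposite directions with the cytokines. Untreated libraries held 313, 188 and 287 rescaled CPM in replicates 1, 2 and 3. IFNg gave 910.2, 545 and 839.9 at 2 h and 1703, 808 and 1493 at 4 h, so that each library lay above all untreated ones. IL4 gave 193, 142 and 194 at 2 h and 106, 91.4 and 104 at 4 h. Each of these 4 h libraries lay below all untreated ones. The rise with IFNg was 1.54 ± 0.32, adjusted p = 0.0024, at 2 h and 2.30 ± 0.32, adjusted p = 2.7e-05, at 4 h, or 4.94-fold. The fall with IL4 at 4 h was -1.35 ± 0.32, adjusted p = 0.0058, a level 0.392 times that of untreated cells, and the 2 h change of -0.55 ± 0.32, adjusted p = 0.43, was called with the block (0.0042) and without all libraries numbered 2 (0.0050). With CPM as deposited the 4 h fall was -0.87, adjusted p = 0.052. The combination gave intermediate levels of 555, 339 and 591 at 2 h and 729, 332 and 602 at 4 h. Its change was 0.90 ± 0.32, adjusted p = 0.056, at 2 h and 1.03 ± 0.32, adjusted p = 0.016, at 4 h. The 2 h change was called by edgeR on recovered reads (0.044), DESeq2 (0.023), CPM as deposited (0.014) and the block (2.0e-05). From 2 h to 4 h of IFNg the difference was 0.77 ± 0.32, adjusted p = 0.12 (block 0.00015), and of IL4 -0.80 ± 0.32, adjusted p = 0.26 (block 0.00039).

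The libraries numbered 2 had the lowest Itga4 in all 7 groups, and these were also the libraries with the lowest summed macrophage markers; the part of this in the Itga4 changes was not tested. Within each number the order of the groups was the same at 4 h, with IFNg above the combination, the combination above untreated and untreated above IL4. The fall with IL4 at 4 h was not called without all libraries numbered 1 (0.088) or all libraries numbered 3 (0.16), and the rise with IFNg at 2 h not without all libraries numbered 3 (0.11) or untreated replicates 2 and 3 together (0.11). The Itga4 rise with the combination at 4 h was not called without all libraries numbered 1 (0.12), all libraries numbered 3 (0.17), untreated replicate 2 (0.081), combination 4 h replicate 1 (0.087), combination 4 h replicate 3 (0.057) or untreated replicates 2 and 3 together (0.26), and the 2 h change was called without all libraries numbered 2 (0.00014) or combination 2 h replicate 2 (0.026). The change of Itga4 from 2 h to 4 h was called without all libraries numbered 2 (0.00044) or IFNg 4 h replicate 2 (0.026) for IFNg and without all libraries numbered 2 (0.0020) for IL4. Cerkl overlaps Itga4 on the other strand.

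Itga5 (chr15:103344286-103366763), the α5 chain of the fibronectin receptor, rose with IFNg and was not called with IL4. The untreated level was 96.2, 129 and 119 rescaled CPM in replicates 1, 2 and 3. IFNg gave 259.6, 245 and 265 at 2 h and 401, 226 and 313 at 4 h, and the combination 258, 236 and 256 and 233, 209 and 194. No library with IFNg overlapped one without it. The log2 change with IFNg was 1.16 ± 0.17, adjusted p = 7.0e-05, at 2 h and 1.41 ± 0.17, adjusted p = 3.9e-06, at 4 h, and with the combination 1.12 ± 0.17, adjusted p = 7.1e-05, and 0.89 ± 0.17, adjusted p = 0.00036. None of these 4 calls was lost in any alternative run. IL4 left 89.4, 118 and 110.1 at 2 h and 81.5, 98.6 and 85.6 at 4 h, lower than untreated in 3 of 3 replicate pairs, with changes of -0.12 ± 0.17, adjusted p = 0.87, and -0.37 ± 0.17, adjusted p = 0.13. The 95% interval of the 4 h change was -0.72 to -0.01. IFNg 4 h replicate 2 was the lowest of its group, and without it the difference of 0.25 ± 0.17, adjusted p = 0.35, between 4 h and 2 h of IFNg became a call (0.036).

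Itga6 (chr2:71745616-71858416), the α6 chain of laminin receptors, was lower in every 4 h group than in untreated cells. Treatment and time in culture cannot be told apart in this shared change. Untreated cells held 352, 464 and 519 rescaled CPM in replicates 1, 2 and 3. At 2 h the levels were 225, 339 and 311 with IL4, 354, 434 and 455 with IFNg and 268, 326 and 349 with the combination. At 4 h they were 113, 185 and 151 with IL4, 191, 313 and 260.1 with IFNg and 98.6, 196 and 141 with the combination. All 4 h libraries were thus below the lowest untreated one, and the means were lowest where IL4 was given, alone or with IFNg. The log2 changes at 4 h were -1.58 ± 0.25, adjusted p = 0.00021, with IL4, -0.81 ± 0.25, adjusted p = 0.017, with IFNg and -1.65 ± 0.25, adjusted p = 5.2e-05, with the combination. At 2 h they were -0.61 ± 0.25, -0.09 ± 0.25 and -0.49 ± 0.25, with adjusted p of 0.19, 0.91 and 0.20 (block 0.00051, 0.55 and 0.0016). Between 2 h and 4 h Itga6 fell by 0.97 ± 0.25 with IL4 (adjusted p = 0.0497) and by 1.16 ± 0.25 with the combination (adjusted p = 0.0039). The corresponding difference with IFNg was -0.72 ± 0.25, adjusted p = 0.059 (block 6.1e-05). Itga6 was the 1 gene of the 10 called between the times with IL4, where 2.81% of all genes were called, and with the combination, where 18.3% were.

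The falls of Itga6 with IL4 and with the combination at 4 h against untreated cells kept their call in all alternatives. The fall with IFNg at 4 h was not called with CPM as deposited (-0.70, adjusted p = 0.12) or without all libraries numbered 3 (0.24), untreated replicate 3 (0.075), IFNg 4 h replicate 1 (0.096) or untreated replicates 2 and 3 together (0.37). The Itga6 change between 2 h and 4 h of IL4 was at the threshold: edgeR on recovered reads gave an adjusted p of 0.063, CPM as deposited 0.34, a pseudocount of 0.1 0.052 and no filter 0.081, and the call was also lost without all libraries numbered 1 (0.058), all libraries numbered 2 (0.071), all libraries numbered 3 (0.70), IL4 2 h replicate 1 (0.054), IL4 2 h replicate 2 (0.17), IL4 2 h replicate 3 (0.16), IL4 4 h replicate 1 (0.22) or IL4 4 h replicate 3 (0.13). That of the combination was lost without all libraries numbered 3 (0.17). The change between the IFNg times was called by DESeq2 (0.034) and without all libraries numbered 2 (0.048) or IFNg 4 h replicate 2 (0.034). The non-coding genes Gm13662, Gm13663 and Gm17250 and the pseudogene Gm13739 overlap Itga6.

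**Figure D3:**
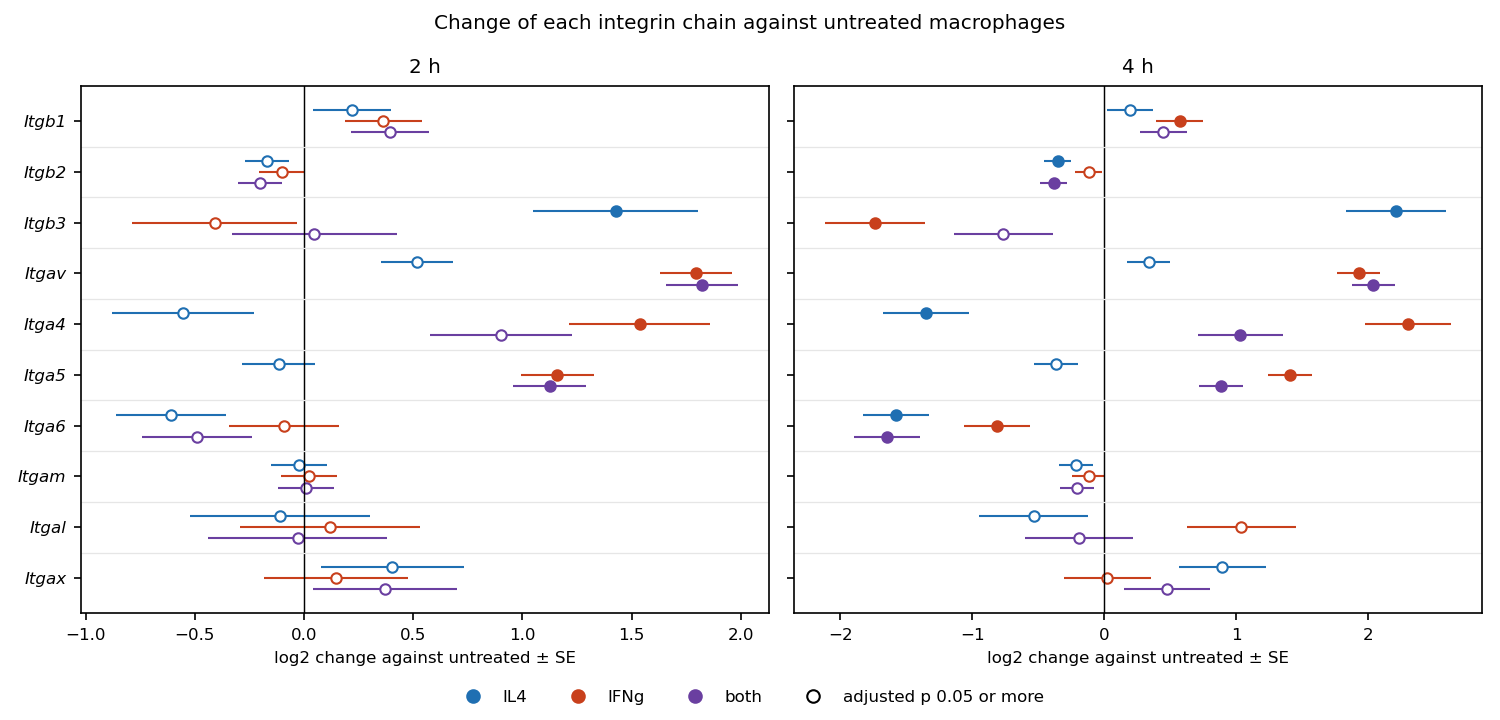
Log2 change of each integrin chain against untreated cells ± SE at 2 h (left) and 4 h (right), coloured by treatment, with filled circles for an adjusted p under 0.05. Itgav, Itga4 and Itga5 lie to the right with IFNg, Itga6 lies to the left at 4 h, and Itgb3 lies at 2.21 with IL4 and -1.73 with IFNg at 4 h; the Itgb2 point with IL4 at 4 h is the one called value that changes sign with CPM as deposited.

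Among the β chains, Itgb3 (chr11:104608000-104670476), which forms the αvβ3 vitronectin receptor with αv, moved most. The untreated libraries held 15.9, 17.8 and 26.5 rescaled CPM in replicates 1, 2 and 3. IL4 gave 45.8, 44.1 and 80.00 at 2 h and 117, 63.2 and 114 at 4 h, all above the untreated range. IFNg gave 13.03, 9.79 and 23.8 at 2 h and 4.71, 4.33 and 6.84 at 4 h, and at 4 h all 3 lay below the untreated range. The rise with IL4 was 1.43 ± 0.38, adjusted p = 0.024, at 2 h and 2.21 ± 0.38, adjusted p = 0.00038, at 4 h, a 4.63-fold increase. IFNg lowered it by 4 h (-1.73 ± 0.38, adjusted p = 0.0015), and between 2 h and 4 h of IFNg it fell by 1.32 ± 0.38 (adjusted p = 0.022), the 1 gene of the 10 called there, where 17.7% of all genes were. Its partner chain Itgav rose with IFNg while Itgb3 fell. With IL4 at 4 h Itgav differed from untreated by 0.34 ± 0.16, called with the block and as deposited but not in limma without them, against the 2.21 of Itgb3. In the combination Itgb3 held 19.6, 12.2 and 34.7 at 2 h and 11.8, 8.20 and 14.3 at 4 h, changes of 0.05 ± 0.38, adjusted p = 0.96, and -0.76 ± 0.38, adjusted p = 0.12 (block at 4 h 0.00099), from untreated. Replicate 2 was the lowest library in 6 of 7 groups. The 2 h rise with IL4 was not called without all libraries numbered 1 (0.30), all libraries numbered 3 (0.066), untreated replicate 1 (0.093), untreated replicate 2 (0.077), IL4 2 h replicate 3 (0.12) or untreated replicates 2 and 3 together (0.13). The Itgb3 rise with IL4 at 4 h was not called without all libraries numbered 1 (0.060), the fall with IFNg at 4 h not without untreated replicates 2 and 3 together (0.070), and the fall between the IFNg times not without all libraries numbered 1 (0.22), all libraries numbered 3 (0.086), IFNg 2 h replicate 3 (0.13), IFNg 4 h replicate 1 (0.076) or IFNg 4 h replicate 2 (0.060).

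Itgb1 (chr8:128685654-128733200), the common partner of α4, α5 and α6, changed little in comparison. Its untreated level was 689, 895 and 775 rescaled CPM in replicates 1, 2 and 3, and IFNg at 4 h gave 1233, 1138 and 1126. These groups did not overlap, and the rise of 0.57 ± 0.18, adjusted p = 0.017, was 1.49-fold. The other treated groups had means of 905 ± 162 (IL4, 4 h) to 1068 ± 69.8 (combination, 4 h) rescaled CPM (SD, n = 3), each above the untreated mean of 786 ± 103. All 6 treated groups were higher than untreated in 3 of 3 replicate pairs, a shared rise in which treatment and time in culture cannot be told apart. The block also called IFNg at 2 h (0.013) and the combination at 2 h (0.0067) and 4 h (0.0015). The rise with IFNg at 4 h was not called without all libraries numbered 1 (0.15), all libraries numbered 3 (0.18), untreated replicate 1 (0.070) or IFNg 4 h replicate 1 (0.058). The combination at 4 h, at 0.45 ± 0.18, adjusted p = 0.052, was called without all libraries numbered 2 (0.012) or untreated replicate 2 (0.038). DESeq2 (0.043) and CPM as deposited (0.038) called it too. With CPM as deposited Itgb1 was also called higher with IL4 at 4 h (0.033) and the combination at 2 h (0.036).

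Itgb2 (chr10:77530252-77565708), the leukocyte β chain, had small decreases with IL4. Its levels were 496, 569.7 and 548 rescaled CPM in untreated replicates 1, 2 and 3, 411, 436 and 415 with IL4 at 4 h and 383, 479 and 380.4 with the combination at 4 h. Neither treated group overlapped the untreated one. The change was -0.35 ± 0.10, adjusted p = 0.019, with IL4, but 0.13, adjusted p = 0.63, with CPM as deposited, where the median gene moved by 0.43. With the combination it was -0.38 ± 0.10, adjusted p = 0.0060, and -0.17, adjusted p = 0.56, as deposited. With IFNg Itgb2 held 465, 538 and 487 at 4 h, inside the untreated range in part, with a change of -0.12 ± 0.10, adjusted p = 0.41. The fall with IL4 was not called without all libraries numbered 1 (0.075), all libraries numbered 3 (0.28), untreated replicate 2 (0.074), untreated replicate 3 (0.062), IL4 4 h replicate 1 (0.061), IL4 4 h replicate 3 (0.057) or untreated replicates 2 and 3 together (0.37), and that with the combination not without all libraries numbered 3 (0.19) or untreated replicates 2 and 3 together (0.21). The combination at 2 h, -0.20 ± 0.10, adjusted p = 0.20, was called with the block alone (0.027).

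Of the α partners of β2, Itgam (chr7:128062640-128118491), the CD11b chain, was the steadiest of the 10 genes. Its group means ran from 772 ± 22.2 with IL4 at 4 h to 911 ± 82.5 with IFNg at 2 h (SD, n = 3), against 901 ± 126 in untreated cells, and all neighbouring groups overlapped. No comparison called it; with the block it was lower at 4 h with IL4 (0.025) and with the combination (0.021), by 0.21 on the log2 scale in both. The 95% interval of its change at 4 h was -0.49 to 0.06 with IL4 and -0.39 to 0.16 with IFNg, so a change past 1.5-fold was outside both. Gm49368, a protein-coding gene model, overlaps Itgam on the same strand.

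Itgal (chr7:127296260-127335138), the αL chain that binds Icam1, was highest with IFNg at 4 h. That group held 119.9, 37.5 and 88.3 rescaled CPM in replicates 1, 2 and 3, against 50.1, 23.2 and 37.5 in untreated cells, 31.2, 16.9 and 26.3 with IL4 at 4 h and 42.01, 20.9 and 33.1 with the combination at 4 h. In every replicate pair IFNg 4 h was above untreated, yet the groups overlapped, since IFNg 4 h replicate 2 lay below untreated replicate 1; replicate 2 was lowest in all 7 groups. The other groups had means of 24.8 to 39.8. The change of 1.04 ± 0.41, adjusted p = 0.055, was not called by limma, while edgeR on recovered reads gave 0.039, DESeq2 0.016, CPM as deposited 0.048 and the block 2.3e-06. It was also called without all libraries numbered 2 (0.00093), untreated replicate 1 (0.037) or IFNg 4 h replicate 2 (0.0056). The summed T and NK cell markers were 3.16 to 19.9 rescaled CPM in the libraries numbered 2, 16.7 to 33.3 in those numbered 1 and 12.9 to 25.3 in those numbered 3, almost all from Cd4 and Lck, with Cd3e, Cd3d, Cd3g, Ncr1 and Klrb1c under 1 CPM in all. By group these sums were 5.75 to 27.3 in untreated and 12.9 to 33.3 in IFNg 4 h libraries, and their part in the Itgal levels was not tested. Itgal with IL4 at 4 h was lower than untreated in 3 of 3 pairs (-0.53 ± 0.41, adjusted p = 0.42, block 0.0026).

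Itgax (chr7:128129547-128150657), the CD11c chain, was low throughout, at 32 to 405 reads a library. Untreated cells held 3.42, 1.92 and 1.42 rescaled CPM in replicates 1, 2 and 3, IL4 at 4 h 7.40, 4.50 and 3.35, IFNg at 4 h 3.19, 2.23 and 1.43 and the combination at 4 h 5.06, 3.46 and 2.12. Replicate 1 was the highest and replicate 3 the lowest in all 7 groups. The change with IL4 at 4 h was 0.90 ± 0.33, adjusted p = 0.062, not called by limma, but higher in 3 of 3 pairs and called with the block (1.3e-07) and with CPM as deposited (0.0095). It was also called by DESeq2 (0.044) and without all libraries numbered 1 (0.038), untreated replicate 1 (0.033) or IL4 4 h replicate 3 (0.043). With the block the combination at 4 h (7.3e-05) and both 2 h groups with IL4 (0.0013 alone and 0.0014 combined) were higher as well. The summed dendritic cell markers were 3.29 to 5.10 rescaled CPM in untreated cells, and 2.80 to 5.07 and 2.45 to 4.79 with IL4 at 2 h and 4 h. They were 5.34 to 6.90 and 4.94 to 8.29 with the combination at 2 h and 4 h, and 5.15 to 8.24 and 4.68 to 11.5 with IFNg. By number these sums were 4.54 to 11.5 in the libraries numbered 1, 2.45 to 5.34 in those numbered 2 and 4.45 to 8.25 in those numbered 3. Their part in the Itgax levels was not tested.

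The balance of the 3 α partners of β2 within a library does not depend on the scaling of that library. Per kb of exon, Itgam made up 96.5% ± 1.69 of their sum in untreated cells (SD, n = 3) and 92.6% ± 3.91 with IFNg at 4 h. The Itgal share was 3.17% ± 1.53 in untreated cells, 7.13% ± 3.83 with IFNg at 4 h, 3.11% ± 1.21 with the combination at 4 h and 2.41% ± 0.732 with IL4 at 4 h. IFNg 4 h replicates 1, 2 and 3 gave Itgal shares of 10.98%, 3.32% and 7.08%, against 4.84%, 1.83% and 2.84% in the untreated ones. The Itgax share was 0.289% ± 0.174 untreated and 0.730% ± 0.315 with IL4 at 4 h. CD11b message thus dominated in all groups. In exact two-sided permutation tests of 3 against 3 libraries, which cannot go below 0.1, the smallest p of 45 comparisons was 0.1 (adjusted 0.90), for Itgal and for Itgax between IL4 and IFNg at 4 h. These tests leave the pairing by number aside. In same-number pairs the Itgal share was higher with IFNg at 4 h than in untreated cells in 3 of 3, and the Itgax share was higher with IL4 at 4 h in 3 of 3.

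Between 2 h and 4 h limma called Itga6 and Itgb3 alone, as given above, and the replicate block called further chains. With IL4, Itgb3 was higher at 4 h (0.0043 with the block, difference 0.78 ± 0.38), as was Itgax (0.00050), and Itgal was lower (0.028). With IFNg, Itgal was higher at 4 h (2.4e-05, difference 0.92 ± 0.41). With the combination, Itgb3 (0.0012), Itgb2 (0.041) and Itgam (0.024) were lower at 4 h. Without the block, 1 of these differences was called in an alternative, that of Itgal with IFNg when IFNg 4 h replicate 2 (0.019) or all libraries numbered 2 (0.0036) were left out.

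The single cytokines were then set against each other. The differences leave out the untreated libraries, though these still enter the spread that limma estimates over all groups. At 4 h, 7 of the 10 genes were called, where 42.0% of all genes were, and at 2 h 4 were, against 19.4%. Itgb3 was higher with IL4 by 1.84 ± 0.38, adjusted p = 0.0018, at 2 h and by 3.95 ± 0.38, adjusted p = 2.9e-07, at 4 h, a 15.4-fold difference. Itga4 was lower with IL4, with differences of -2.09 ± 0.32 and -3.65 ± 0.32, adjusted p = 1.2e-07, with 100.3 ± 7.79 against 1335 ± 468 rescaled CPM at 4 h (SD, n = 3). Itgav (-1.59 ± 0.16) and Itga5 (-1.78 ± 0.17) were also lower with IL4 at both times, and Itgal (-1.58 ± 0.41, adjusted p = 0.0051) and Itga6 (-0.76 ± 0.25, adjusted p = 0.022) at 4 h. Itgax was higher with IL4 at 4 h (0.87 ± 0.33, adjusted p = 0.043). In 3 of 3 replicate pairs each of these 7 differences had the same direction, in the same libraries that gave the calls. With the block Itgb1 (0.0055) and Itgb2 (0.0067) were also lower with IL4 at 4 h, and at 2 h Itga6 was lower (0.0011) and Itgax higher (0.019). The Itgax call was lost with no filter on low values (0.070) and without all libraries numbered 2 (0.17), all libraries numbered 3 (0.091), IL4 4 h replicate 1 (0.20), IL4 4 h replicate 2 (0.068), IFNg 4 h replicate 2 (0.078) or IFNg 4 h replicate 3 (0.17). The Itga6 call was lost with CPM as deposited (0.31) and without all libraries numbered 3 (0.20), IL4 4 h replicate 1 (0.11), IFNg 4 h replicate 2 (0.095) or IFNg 4 h replicate 3 (0.059), the Itgal call without all libraries numbered 3 (0.14), and the Itgb3 call at 2 h without all libraries numbered 1 (0.072). Itgb1, at -0.38 ± 0.18, adjusted p = 0.10, was called at 4 h without all libraries numbered 2 (0.0076) or IL4 4 h replicate 2 (0.042). DESeq2 called Itgb2 lower with IL4 at 4 h (0.041).

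When IL4 was given with IFNg, the levels of Itga4 and Itga5, which IFNg raised, were lower at 4 h than with IFNg alone. At 4 h 3 of 10 were called between the combination and IFNg alone, all lower, where 11.9% of all genes were called and 5.98% were lower. The difference was -1.27 ± 0.32, adjusted p = 0.014, for Itga4, -0.53 ± 0.17, adjusted p = 0.049, for Itga5 and -0.83 ± 0.25, adjusted p = 0.039, for Itga6. Itga4 in the combination was 0.414 times its level with IFNg alone. For Itgav it was 0.11 ± 0.16, adjusted p = 0.82, with a 95% interval of -0.24 to 0.46, and the 3 combination libraries lay above the 3 with IFNg alone. Itgal was lower in 3 of 3 pairs (-1.23 ± 0.41, adjusted p = 0.064) and was called by edgeR on recovered reads (0.042), DESeq2 (0.0084) and the block (1.1e-06). Itgb3 was higher in the combination in 3 of 3 pairs without overlap (0.97 ± 0.38, adjusted p = 0.12, block 0.00033, DESeq2 0.042). With the block 7 of 10 were called at 4 h, where 32.6% of all genes were, also Itgb2 lower (0.0067) and Itgax higher (0.00038). At 2 h limma called 0 of 10, against 3.01% of all genes, with 0 at an unadjusted p under 0.05 and 0 by edgeR or DESeq2, while the block called Itga4 (0.0030) and Itga6 (0.027) lower.

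These 4 h calls between the combination and IFNg were lost in several alternatives, while the differences kept their sign: in the fits that lost the call they were -0.94 to -1.30 for Itga4, -0.33 to -0.60 for Itga5 and -0.58 to -0.84 for Itga6. All 3 calls were lost without the libraries numbered 3. The Itga4 call was lost without all libraries numbered 1 (0.14), all libraries numbered 3 (0.29), IFNg 4 h replicate 1 (0.083), IFNg 4 h replicate 3 (0.065) or combination 4 h replicate 2 (0.087). The Itga5 call was lost with CPM as deposited (0.21), with no filter (0.071) and without all libraries numbered 1 (0.22), all libraries numbered 3 (0.61), IFNg 4 h replicate 1 (0.27), IFNg 4 h replicate 3 (0.14), combination 4 h replicate 1 (0.058), combination 4 h replicate 2 (0.12) or combination 4 h replicate 3 (0.17). The Itga6 call was lost with CPM as deposited (0.25), with no filter (0.062), in edgeR (0.056) and without all libraries numbered 3 (0.44), IFNg 4 h replicate 2 (0.13), IFNg 4 h replicate 3 (0.12), combination 4 h replicate 1 (0.19) or combination 4 h replicate 3 (0.096). In turn Itgal was called without all libraries numbered 2 (0.0011) or IFNg 4 h replicate 2 (0.0069), Itgb2 without all libraries numbered 2 (0.046) or combination 4 h replicate 2 (0.022), and at 2 h Itga4 without all libraries numbered 2 (0.011).

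Against IL4 alone, the combination differed in the same 4 chains at both times, with 14.8% of all genes called at 2 h and 30.9% at 4 h. Itgb3 was lower in the combination, with differences of -1.38 ± 0.38, adjusted p = 0.019, at 2 h and -2.97 ± 0.38, adjusted p = 1.3e-05, at 4 h, where it held 0.127 times its level with IL4 alone. Itgav (1.31 ± 0.16 and 1.70 ± 0.16), Itga4 (1.46 ± 0.32 and 2.38 ± 0.32) and Itga5 (1.24 ± 0.17 and 1.25 ± 0.17) were higher in the combination. Itga6 was not called between them, with a difference at 4 h of -0.07 ± 0.25, adjusted p = 0.88 (95% interval -0.61 to 0.47), nor was Itgb2 (95% interval -0.25 to 0.19). At 4 h all these calls held in every alternative run. At 2 h the Itgb3 call was lost without all libraries numbered 1 (0.20), all libraries numbered 2 (0.057), IL4 2 h replicate 3 (0.11), combination 2 h replicate 1 (0.059) or combination 2 h replicate 2 (0.11), and the Itga4 call without all libraries numbered 1 (0.082) or all libraries numbered 3 (0.18). At 4 h the block added Itgal higher (0.032) and Itgax lower (0.00037).

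**Figure D4:**
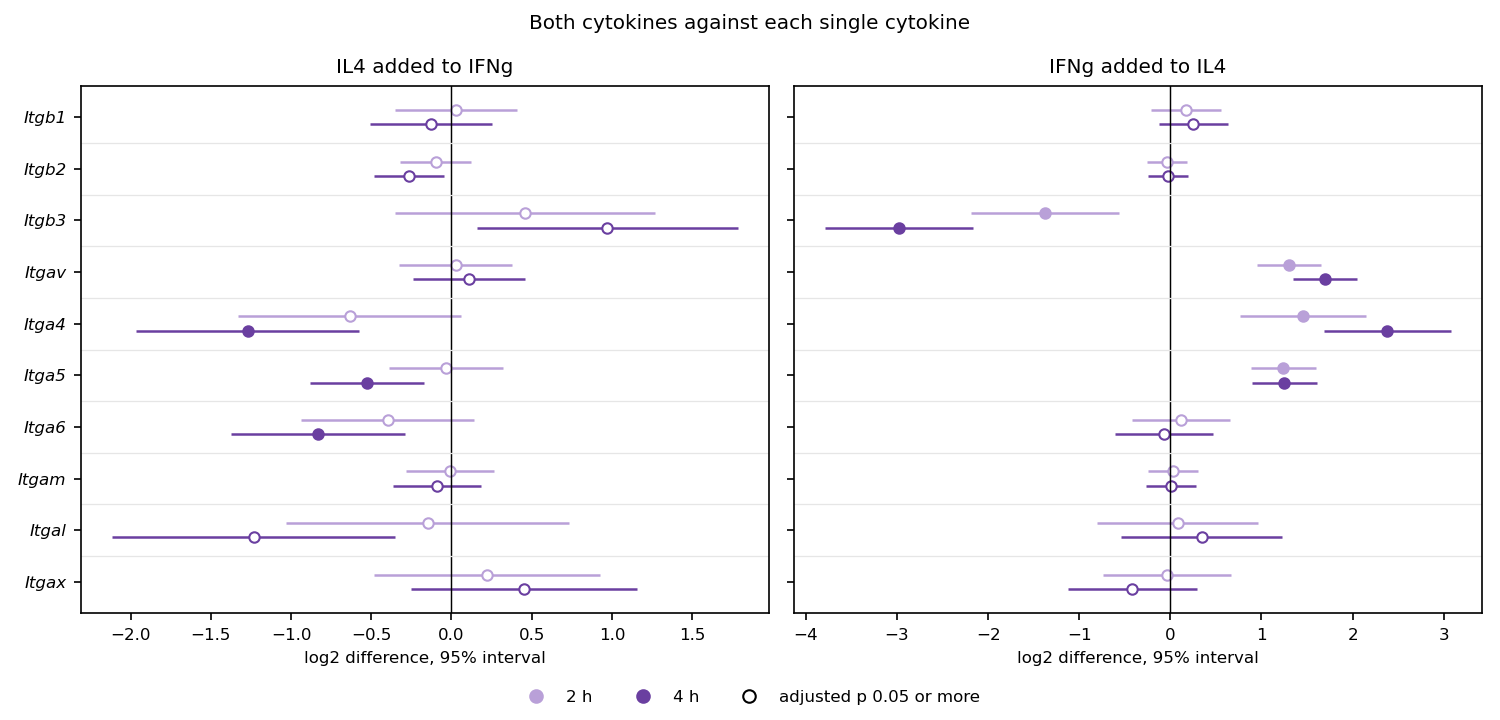
Log2 difference of each integrin chain between the combination and IFNg alone (left) and IL4 alone (right) with 95% intervals, at 2 h (light) and 4 h (dark); filled circles have an adjusted p under 0.05. On the left Itga4, Itga5 and Itga6 lie below 0 at 4 h while Itgav lies at 0.11; on the right Itgb3 lies at -2.97 and Itga4 at 2.38 at 4 h.

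The 5 other integrin chains that passed the filter differed in direction at 4 h (means ± SD, n = 3). Called higher and lower were 1 and 2 with IL4, 2 and 1 with IFNg and 2 and 2 with the combination, against the background shares given above. With CPM as deposited these were 1 and 0, 1 and 0, and 2 and 0. Itgb5, the β chain of the αvβ5 vitronectin receptor, fell from 360.5 ± 70.2 to 222 ± 42.3 rescaled CPM (log2 -0.70 ± 0.21, adjusted p = 0.026) with IL4, with changes of -0.59 (adjusted p = 0.038) with IFNg and -0.83 (adjusted p = 0.0048) with the combination. None of these 3 Itgb5 falls was called with CPM as deposited (adjusted p = 0.56, 0.25 and 0.11). Time in culture cannot be told apart from treatment in a fall shared by all 4 h groups. Itga8, a chain that pairs with β1, rose with IFNg from 2.19 ± 0.413 to 6.99 ± 1.77 rescaled CPM (log2 1.31 ± 0.22, adjusted p = 0.00017). Its mean was 3.95 ± 0.889 with the combination and 0.869 ± 0.451 with IL4, the latter below untreated cells. Itga1, a collagen-binding partner of β1, rose with IL4 from 1.08 ± 0.111 to 3.20 ± 0.780 rescaled CPM (log2 1.00 ± 0.17, adjusted p = 0.00036) and with the combination to 3.02. With IFNg it was also above untreated cells, at 1.89 ± 0.237. Itga9 fell with the combination from 10.4 ± 4.69 to 4.86 ± 1.48 rescaled CPM (log2 -0.91 ± 0.35, adjusted p = 0.043), which was not called as deposited (adjusted p = 0.14). Itgb7, which can pair with α4, was not called in any of these groups, and in the libraries numbered 2 it was the highest of its group in all 7 groups, where Itga4 was the lowest. With the block Itgb7 was higher with IFNg (7.2e-05) and lower with IL4 (0.0022).

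Genes that link integrins to the cytoskeleton and to signalling, 42 tested of 48 listed, moved in both directions. With IL4 at 4 h 5 were higher and 14 lower (median -0.17; 11 and 3 as deposited), and with IFNg at 4 h 15 were higher and 9 lower (median 0.20; 13 and 3 as deposited), against the background shares given above. Zyx, which encodes the focal adhesion protein zyxin, rose with IFNg from 102 ± 12.1 to 1562 ± 620.4 rescaled CPM (log2 3.84 ± 0.33, adjusted p = 1.1e-07) and with the combination to 943. Lyn, which encodes a Src-family kinase, rose with IFNg from 235 ± 42.1 to 662 ± 149 rescaled CPM (log2 1.48 ± 0.20, adjusted p = 2.1e-05) and fell with IL4 to 102 ± 16.4 (log2 -1.20, adjusted p = 0.00036). Ptk2b, a focal adhesion kinase relative, fell with IL4 from 198 ± 8.73 to 65.8 ± 5.72 rescaled CPM (log2 -1.58 ± 0.12, adjusted p = 8.2e-08), as did Plaur, the urokinase receptor, from 20.6 ± 4.55 to 7.94 ± 1.01 rescaled CPM (log2 -1.26 ± 0.36, adjusted p = 0.017). The Plaur fall was not called with CPM as deposited (adjusted p = 0.072). Apbb1ip, whose product RIAM brings talin to integrins, fell with IFNg from 145 ± 8.005 to 40.6 ± 2.51 rescaled CPM (log2 -1.81 ± 0.10, adjusted p = 6.4e-10) and with the combination to 43.2. Rassf5, which encodes the Rap effector RAPL, fell with the combination from 58.1 ± 5.96 to 17.8 ± 3.41 rescaled CPM (log2 -1.66 ± 0.14, adjusted p = 5.8e-08), and Parvb, a parvin, from 74.5 ± 5.04 to 27.7 ± 3.39 rescaled CPM (log2 -1.40 ± 0.10, adjusted p = 1.6e-08).

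Among ligands, 28 of the 40 in the table passed the filter. With IL4 at 4 h 6 were higher and 1 lower (6 and 1 as deposited), with IFNg 7 and 1 (7 and 0), and with the combination 8 and 1 (8 and 1). The higher ones were 21.4%, 25.0% and 28.6% of the 28, against 12.0%, 21.3% and 22.8% of all genes, and the lower one 3.57%, against 10.1%, 17.8% and 19.8%. Icam1, which αL and αM bind, rose with IFNg from 105 ± 34.5 to 2378 ± 1232 rescaled CPM (log2 4.37 ± 0.45, adjusted p = 8.2e-07), and Vcam1, which α4 binds, from 1.29 ± 0.911 to 21.1 ± 20.9 rescaled CPM (log2 2.76 ± 0.62, adjusted p = 0.0020). With IL4 at 4 h these stood at 108 ± 32.7 and 0.544 ± 0.294. C3, whose fragment binds αM and αX, rose with IFNg from 95.04 ± 88.8 to 845 ± 696 rescaled CPM (log2 3.14 ± 0.98, adjusted p = 0.018). Fn1, which encodes fibronectin, rose with IL4 from 9.57 ± 3.53 to 27.4 ± 12.6 rescaled CPM (log2 1.40 ± 0.43, adjusted p = 0.026) and with the combination to 91.8 ± 20.8 (log2 3.17, adjusted p = 1.4e-05). Thbs1, thrombospondin, fell with IL4 from 265 ± 81.7 to 30.3 ± 14.2 rescaled CPM (log2 -3.14 ± 0.34, adjusted p = 4.9e-06). Pecam1, an adhesion protein of vessels and leukocytes, rose with IL4 from 0.602 ± 0.115 to 15.1 ± 3.47 rescaled CPM (log2 3.31 ± 0.21, adjusted p = 9.9e-09), and Cdh1, which encodes E-cadherin, rose with IL4 to 9.91 ± 2.42 (log2 3.38 ± 0.19, adjusted p = 1.7e-09). Fbn1, which encodes fibrillin, rose with IFNg from 1.01 ± 0.251 to 15.8 ± 3.58 rescaled CPM (log2 3.05 ± 0.24, adjusted p = 4.8e-08).

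Genes with the pattern most like those of the 3 chains with the widest range were sought among 9397 genes by the correlation of the 7 group means, with that over the 21 libraries beside it, as a description. Itgb3 was most like Slc7a4 (r = 0.995; 0.820 over libraries), Igip (0.994; 0.861) and Scoc (0.992; 0.736). Itga4 was most like Zc2hc1a (0.996; 0.896), Ptprc, the CD45 gene (0.993; 0.973), and Emb (0.993; 0.947). Itgav was most like Psmd7 (0.995; 0.839), Camta1 (0.995; 0.961) and Il18rap (0.995; 0.986). All these values share the same libraries.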

How the data were processed

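Bone marrow-derived macrophages were profiled by poly(A) RNA sequencing (TruSeq) in 21 libraries, 7 groups of 3, assigned by the labels. The authors deposited CPM values for 24421 genes; TopHat2 2.1.0, HTSeq and edgeR on mm10 (GRCm38) are named in the submitters' processing notes, with no further settings. Each library's smallest CPM above 0 was taken as 1 read, and 100% of values were then whole within 0.01 read, with totals of 28920801 to 80028327 reads. Deposited CPM were divided by median-ratio factors from the 13025 genes above 0 in all libraries. The 11380 genes that reached 1 CPM in 3 or more libraries were fitted as log2(rescaled CPM + 1) with limma 3.58.1 in R 4.3.3, with 1 mean per group, 14 residual degrees of freedom and a trended empirical Bayes variance, and Benjamini-Hochberg adjustment within each of 15 contrasts. P-values named in parentheses for the block or an omitted library are adjusted p of the same limma fit. The fit was tested on simulated counts, drawn independently for each library with changes in 1 group. The simulation had no effect of the replicate number, so it checks the code and not the calls in these data.

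Alternatives were CPM as deposited, the replicate number as a block, a pseudocount of 0.1, no filter, edgeR 4.0.16 (quasi-likelihood) and DESeq2 1.42.0 on the recovered reads, and fits without each library, each replicate number, and untreated replicates 2 and 3. Replicate numbers come from the sample titles. With group means removed, Pearson's r over genes was 0.54 to 0.95 for the 63 pairs of libraries that share a number and -0.86 to 0.37 for the 126 that do not. The numbers were thus taken to pair the libraries in the block fit and in the counts of replicate pairs. The main limma fit leaves this pairing aside, so its standard errors and intervals include the spread between the numbers.

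The 10 genes and the gene lists were chosen with earlier results of these data known, and a list's counts are no independent support. All 10 genes were named, with all other integrin chains past the filter. From the adaptor and ligand lists up to 4 called genes with the largest change were named for each treatment against untreated cells at 4 h and for IL4 against IFNg at 4 h (1 of them is not reported here), and 3 genes most like each of the 3 chains with the widest range. Gene positions and exon lengths are from GENCODE vM21, and promoters from RefSeq (GRCm38.p6). The 2 interaction contrasts were added after the data were seen.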

Additional observations from a re-analysis of the deposited data

Results flagged for a closer look

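For 3 results the change at 4 h differed from that at 2 h under the same cytokine, by a direct test of 4 h against 2 h in limma. The untreated libraries cancel in the difference but still enter the spread that limma estimates. Itga6 changed by -0.61 at 2 h and -1.58 at 4 h of IL4, a difference of -0.97 ± 0.25 (adjusted p = 0.0497; 0.34 with CPM as deposited and 1.4e-05 with the replicate block). With the combination Itga6 changed by -0.49 at 2 h and -1.65 at 4 h, a difference of -1.16 ± 0.25 (adjusted p = 0.0039; 0.015 as deposited). Itgb3 changed by -0.41 at 2 h and -1.73 at 4 h of IFNg, a difference of -1.32 ± 0.38 (adjusted p = 0.022; 0.018 as deposited). Each was lower at 4 h in 3 of 3 replicate pairs, with no overlap between the times. The results were picked by the test on these same libraries, so this is no added support. Each call was also lost in some alternative run, as given above.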

How the results depend on the processing

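Of 150 pairs of a gene and a comparison, 46 were called, and 24 of these kept the call in every alternative run. In all, 22 lost it in at least 1 alternative. With CPM as deposited the number of integrin chains called went from 1 to 2 for IL4 at 2 h, from 2 to 4 for the combination at 2 h, from 3 to 1 for the combination against IFNg at 4 h and from 1 to 0 for IL4 between the times. Over all genes the share called went in turn from 8.62% to 16.7%, from 22.2% to 20.8%, from 11.9% to 6.13% and from 2.81% to 0.659%. Itgb2 with IL4 at 4 h reversed, from -0.35 to 0.13. IL4 between the times also gave 0 with a pseudocount of 0.1, with no filter and with edgeR on recovered reads, where 2.59%, 1.56% and 2.56% of all genes were called. The combination against IFNg at 4 h gave 1 with no filter (7.39% of all genes) and 5 with DESeq2 (14.9%), and IFNg between the times gave 2 with DESeq2 (21.3%). Without untreated replicates 2 and 3 the combination at 4 h gave 3 calls in place of 5, IFNg at 4 h gave 4 in place of 6, and IFNg at 2 h gave 2 in place of 3. The cause of these shifts was not tested. Shares of all genes in the fits with libraries left out, here and below, are not given, so those counts cannot be set against a background.

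With the replicate block, which treats the numbers as pairing the libraries, no call was lost. It gave 5 calls for IL4 at 2 h and 8 at 4 h, 7 for the combination at 2 h and 9 at 4 h, 2 and 7 for the combination against IFNg at 2 h and 4 h, and 5, 4 and 4 between the times with IL4, IFNg and the combination. The block raised calls over all genes too: for these 9 comparisons in turn it called 25.5%, 47.5%, 43.4%, 66.7%, 10.4%, 32.6%, 19.8%, 45.2% and 46.9% of all genes. It changed no call other than those named above.

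When 1 library or 1 replicate number was left out, calls against untreated cells ranged from 0 to 2 and 2 to 5 for IL4 at 2 h and 4 h, 2 to 3 and 4 to 7 for IFNg, and 2 to 3 and 3 to 6 for the combination. The combination against IFNg gave 0 to 1 and 0 to 5, and against IL4 2 to 4 at 2 h and 4 in each case at 4 h. Between the times the calls ranged from 0 to 1 with IL4, 0 to 4 with IFNg and 0 to 1 with the combination, and between IL4 and IFNg from 3 to 4 at 2 h and 4 to 7 at 4 h. Without length scaling the shares of the β2 partners in untreated cells and the 4 h groups moved by less than 1 SD. With 1 library left out, the Itgal share with IFNg at 4 h was 5.20% to 9.03%, against 7.13% with all 3. Leaving out 1 of 3 libraries cannot move a mean by 1 SD, so stability was not tested there. Of the 10 chains Itgax had the fewest reads, 32 to 405 a library; what depth adds to its spread was not tested.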

Other observations

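The effect of IL4 in the presence of IFNg was set against its effect alone, as the difference of the differences, a contrast added after the data were seen. At 2 h 0 of 10 integrin chains were called in limma (0.369% of all genes), with 1 at an unadjusted p under 0.05 and 0 by edgeR or DESeq2. At 4 h 0 of 10 were called (1.70% of all genes), with 1 at an unadjusted p under 0.05 and 0 by edgeR or DESeq2. Itgb3 had a difference of -0.97 ± 0.53 at 2 h (adjusted p = 1.0) and -1.24 ± 0.53 at 4 h (adjusted p = 0.37). Itga6 had 0.74 ± 0.36 at 4 h (adjusted p = 0.45), and Itga4 0.08 ± 0.46 (adjusted p = 1.0, 95% interval -0.90 to 1.06). With the replicate block Itgb3 was called at 2 h (adjusted p = 0.041), and at 4 h Itgb3 (0.0027), Itgal (0.017), Itgax (0.017) and Itga6 (0.0042) were called. Itgb3, Itgal and Itgax were lower and Itga6 higher than the sum of the separate changes. The share of all genes that the block calls in these contrasts is not given here, and the block raised that share in the comparisons above. These calls are thus not read as particular to the integrin chains.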
